A study of Homo sapiens with 8 samples.

Results

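The genes described here are 10 proinflammatory cytokines, namely TNF, IL1A, IL1B, IL6, IL11, IL18, IL32, LIF, CSF1 and CSF2, taken by gene symbol from an expression table of 19475 entries and from the gene names in 4 lists of m6A peaks. All 10 had an entry in the expression table, and 5 of them had at least 1 peak. HCT116 cells, an established human colorectal carcinoma line, were treated with the bacterium Fusobacterium nucleatum or with PBS (Control), for 2 h according to the methods of the study, and poly(A) RNA was sequenced before (input) and after (IP) pull-down with an antibody to m6A, a methyl group on adenosines of mRNA. Input and IP had 2 libraries each for Control and for F. nucleatum, which the methods call biological replicates. HCT116 is 1 cell line, and the labels name no engineered allele and no other agent in either group. The comparison asks which of these cytokine genes were expressed in a line of epithelial cells and which changed with the bacterium.

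Cytokines are secreted proteins with which epithelial and immune cells signal to each other. TNF and the IL-1 proteins are early alarm signals that act through NF-κB. IL-6, IL-11 and LIF belong to a family that signals through the shared receptor chain gp130 (gene IL6ST) to JAK kinases and STAT3, and CSF1 (M-CSF) and CSF2 (GM-CSF) direct the growth of macrophages and granulocytes. Many cytokine mRNAs are short-lived because proteins such as ZFP36 bind AU-rich stretches of the 3′UTR, often made of overlapping ATTTA pentamers, and m6A is a further mark by which reader proteins can alter how long an mRNA lasts.

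The sequences on which the results below bear are of both kinds. Most m6A regions of the cytokine transcripts held GGAC, the core of the motif at which m6A is laid down. Among all regions within 10% of the length of each one shown, between 59.5% and 98.3% held it too. A GGAC is thus common at these lengths and not particular to these genes. For each region with a GGAC the copy nearest its middle is shown with 8 bases on either side, in the sense of the transcript, read from GRCh37 (hg19) through GENCODE release 44, with GGAC in capitals.
LIF, region 1, chr22:30639367-30639386, minus strand: cgtgggctGGACttctgcct
LIF, region 2, chr22:30637867-30637886, minus strand: gatgcctgGGACtcagacca
LIF, region 3, chr22:30637176-30637195, minus strand: cccagcctGGACttggcccc
CSF1, chr1:110472020-110472039, plus strand: aggcctctGGACctgctggt
IL18, chr11:112014460-112014479, minus strand: gtgtcccaGGACatgataat
CSF2, chr5:131411621-131411640, plus strand: tcttggagGGACcaaggggt
The densest 30 bases of ATTTA are shown for CSF2 and TNF, whose windows held the most copies of the 10 genes (5 each), and for the gp130 ligands IL11 and LIF, with 3 each, with ATTTA in capitals.
CSF2, chr5:131411769-131411798, plus strand: aaaatATTTATTTATTTATTTATTTAagtt
TNF, chr6:31545783-31545812, plus strand: attATTTATTTAttATTTATTTATTTAcag
IL11, chr19:55877311-55877340, minus strand: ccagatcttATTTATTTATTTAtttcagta
LIF, chr22:30636511-30636540, minus strand: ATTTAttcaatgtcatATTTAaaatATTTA

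Expression was given as FPKM, that is fragments scaled by transcript length and by the total of mapped fragments, from the 4 input libraries. Each library had between 14566 and 14816 entries above 0, the absolute depth was unknown, and the peak lists held between 17039 and 18365 peaks. Of 10 intestinal epithelial markers 7 were above 0 in every library, with KRT8 between 1941 and 2286 FPKM and EPCAM between 161.8 and 184.1 FPKM, whereas VIL1 was at 0 in 3 libraries and CEACAM5 and CEACAM6 were at 0 in all 4. Of 12 leukocyte markers 2 were above 0 in every library, and their summed level was 8.65 and 9.95 FPKM without and 10.2 and 10.3 FPKM with the bacterium, most of it CD68. PTPRC was at most 0.00684 FPKM and TYROBP, CD3E and MS4A1 were at 0 throughout. Of 8 fibroblast markers only COL1A1 was above 0 in every library, with a summed level of 4.58 and 3.82 FPKM without and 5.85 and 5.19 FPKM with the bacterium, and COL1A2, DCN, LUM and THY1 were at 0 throughout.

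Which cytokines were expressed at all was described first. The 10 genes fell into a high pair, a middle group near or below the median gene and a silent group. IL18 and LIF stood among the most abundant transcripts, above 95% and 93.8% of the entries that were over 0 in at least 1 library. IL32 lay in the middle, above 50.6%, and IL11, CSF2 and CSF1 were low, above 31.3%, 28.5% and 24.3%. The other 4 genes had essentially no signal. In all, 6 of 10 were above 0 in every input library, 6 reached 0.1 FPKM in every library and 3 reached 1 FPKM.

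TNF, the founding member of the tumour necrosis factor family, was listed at 0 in both Control libraries and in F. nucleatum 1, and at 0.0141 FPKM in F. nucleatum 2. IL1A, an IL-1 protein that epithelial cells release when they are damaged, was listed at 0 in the same 3 libraries and at 0.069 FPKM in F. nucleatum 2. IL1B, the form of IL-1 that inflammasomes mature, and IL6, the cytokine that drives the acute-phase response, were listed at 0 in all 4 libraries. No rise of these 4 genes was detectable at this depth, which the files do not state, and with a single library above 0 none of them could be given a fold change. None had a peak in any list. In a bulk sample, expression in a few cells and a low level in every cell cannot be told apart.

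The second question was which of the genes responded. LIF rose modestly and was the one cytokine called, IL18 and IL11 differed by less, IL32 did not separate the groups, and CSF2 showed a larger difference at a level too low for the main test. Groups were compared with limma on log2(FPKM + 1) over the 11088 entries with a mean of at least 1 FPKM, and a gene was called at a Benjamini-Hochberg adjusted p under 0.05 over all of these. Of the 10 cytokines 4 passed the filter, and 1 of these 4, LIF, was called, against 0.803% of all entries tested (74 higher and 15 lower). IL11 passed the filter only through its F. nucleatum values. The members and the gene lists below were chosen with earlier results of these data known, so their counts are descriptions. Groups that did not overlap were common, at 47.2% of all entries tested, and are given below as a description.

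LIF, leukaemia inhibitory factor, was at 60.16 and 60.23 FPKM in Control cells, against 79.68 and 80.11 FPKM in treated cells. The means were 60.19 ± 0.0498 and 79.9 ± 0.307 FPKM (SD, n = 2), with a ratio of means of 1.33. An SD of 2 values is a poor measure of the spread between replicates. LIF rose by 0.40 on the log2(FPKM + 1) scale (SE 0.0521, 95% CI 0.27 to 0.53, limma adjusted p = 0.0459). This call was close to the threshold, although the size of the change hardly moved, from 0.40 to 0.42 over the 12 alternative settings. Without either F. nucleatum library the limma adjusted p was 0.461 or 0.443, without either Control library 0.031 or 0.0246, and 6 of the 12 alternatives put it above 0.05. The ends of LIF overlap the antisense genes LIF-AS1 and LIF-AS2, whose reads could not be told apart from those of LIF if strand was not used in the counting, which the sources used here do not state.

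By distance between centred log2(FPKM + 1) profiles over the 4 input libraries, the tested genes most like LIF were PADI3, ARNTL and IER2. These distances rest on the same values as the comparison of the groups, so the likeness is a description. PADI3 was at 0.765 and 0.766 FPKM without and 1.313 and 1.343 FPKM with the bacterium (distance 0.0083). It passed the filter only through its F. nucleatum values, and its ratio of means was 1.74, against 1.33 for LIF. With a pseudocount of 0.1 PADI3 differed by 0.72 and LIF by 0.41, so their closeness depended on the pseudocount. ARNTL was at 5.091 and 5.157 FPKM against 7.049 and 7.145 FPKM (distance 0.0118). IER2, an immediate early gene, was at 68.83 FPKM in both Control libraries, against 94.03 and 92.73 FPKM in treated cells (distance 0.0374). Of the 3 only IER2 was called (limma adjusted p = 0.0342, against 0.213 for PADI3 and 0.137 for ARNTL).

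IL11, a relative of LIF that also uses gp130, was at 1.095 and 0.903 FPKM in the PBS-treated cells, compared with 1.318 and 1.531 FPKM after F. nucleatum. Both F. nucleatum values were above both Control values, but at this low level the difference of 0.28 on the log2(FPKM + 1) scale (SE 0.108, 95% CI 0.01 to 0.55) was not called, with a limma adjusted p of 0.361. IL18, an IL-1 relative that intestinal epithelium makes constitutively as an inactive precursor, was at 84.74 and 80.63 FPKM in Control cells, against 86.56 and 89.7 FPKM in treated cells. The groups did not overlap, yet the difference of 0.09 on that scale (SE 0.0573, 95% CI -0.05 to 0.23) was not called (limma adjusted p = 0.518), and the upper bound of its interval was below the 0.40 estimated for LIF. IL18 lies within an annotated locus on the opposite strand, to which the same limit of unstated strand applies. IL32, a cytokine of immune and epithelial cells, was at 5.83 and 4.673 FPKM without and 5.528 and 2.602 FPKM with the bacterium. The groups overlapped and F. nucleatum 2 alone was low. The IL32 difference was -0.36 on that scale (SE 0.281, 95% CI -1.06 to 0.34, limma adjusted p = 0.595), and without F. nucleatum 2 its sign changed to 0.07.

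CSF2, the granulocyte-macrophage colony-stimulating factor, showed the largest difference of the 10 genes but fell just below the filter, so it has no value in the main comparison. It was at 0.105 and 0.361 FPKM in the PBS-treated cells, compared with 1.33 and 1.79 FPKM after F. nucleatum. Both F. nucleatum values were several-fold above both Control values, while the Control libraries themselves differed widely, and the ratio of means was 6.69 (0.233 ± 0.181 against 1.56 ± 0.329 FPKM, SD, n = 2). With the filter lowered to a mean of 0.1 FPKM, CSF2 differed by 1.06 on the log2(FPKM + 1) scale (SE 0.144, limma p of 0.000499, adjusted p = 0.0682), and without any filter the adjusted p was 0.155. It was thus not called in any of the 3 fits that included it. CSF1, the macrophage colony-stimulating factor, was at 0.441 and 0.424 FPKM in Control cells, against 0.796 and 0.464 FPKM in treated cells. The groups did not overlap, but only F. nucleatum 1 stood clearly above the rest, and with the lower filter the difference of 0.18 was not called (limma adjusted p = 0.55).

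**Figure D1:**
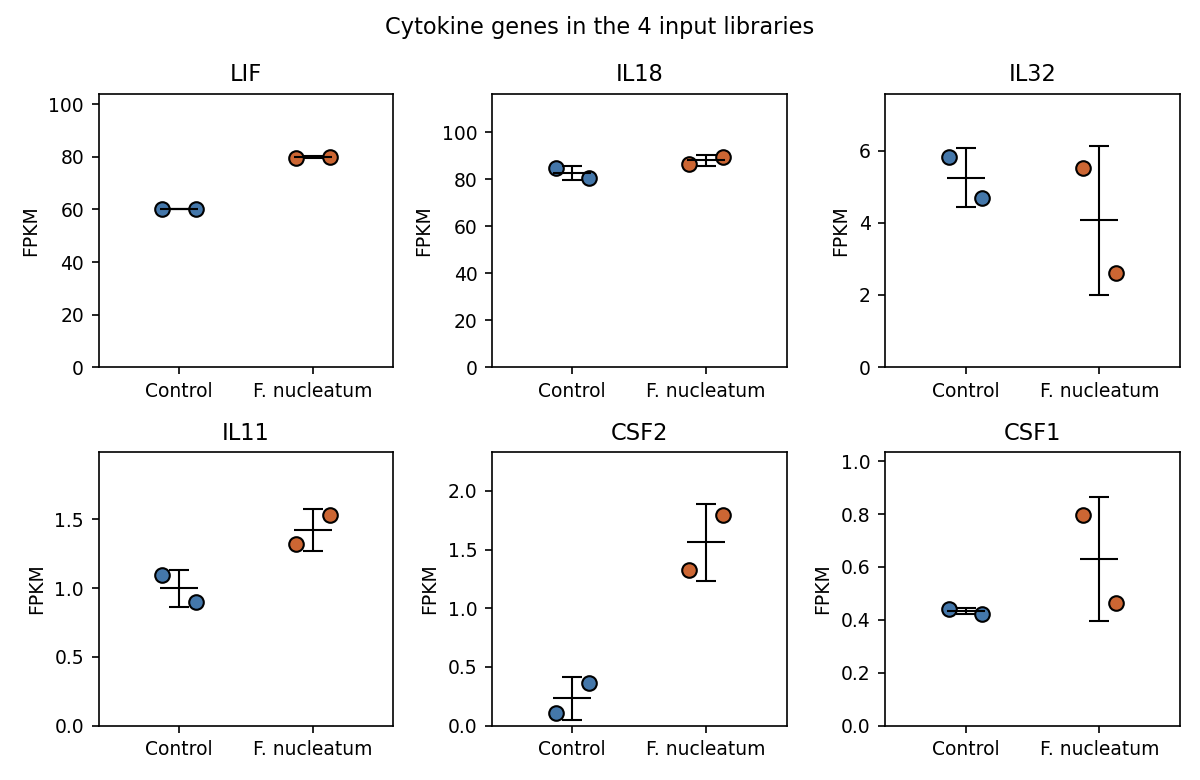
FPKM (vertical axis, from 0) of the 6 cytokine genes above 0 in every input library, with 1 point for each library and the mean ± SD of the 2 libraries of each group as horizontal lines and bars. The LIF libraries sit near 60.2 FPKM in Control and 79.9 FPKM in F. nucleatum cells, the CSF2 libraries at most at 0.361 and at least at 1.33 FPKM, and the IL32 groups overlap.

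FPKM are scaled by length, so the listed levels of the 6 genes can be ordered. They do not correct other biases between genes, such as GC content, and the use of strand was unstated. The order is thus one of listed values only. In Control libraries IL18 was above LIF, followed by IL32, IL11, CSF1 and CSF2, and no neighbours in this order overlapped. In F. nucleatum libraries IL18 stayed above LIF, with a narrower gap (lowest IL18 value 86.56 FPKM, highest LIF value 80.11 FPKM). CSF2 moved from the lowest of the 6 to the level of IL11, and their values of 1.33 and 1.79 FPKM for CSF2 and of 1.318 and 1.531 FPKM for IL11 overlapped.

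Next, the receptors of these cytokines were examined. Of 14 receptor chains 5 were tested, and 1 was called higher and none lower, against 0.803% of all entries called. As the list was chosen with earlier results known, this count cannot show an enrichment. IL6ST and IL6R passed the filter only through their F. nucleatum values, so the tested chains were in part selected for a rise. The one called was IL6ST, the gp130 chain through which LIF, IL-6 and IL-11 all signal. IL6ST was at 0.201 and 0.477 FPKM without and 3.46 and 3.34 FPKM with the bacterium. The rise of 1.72 on the log2(FPKM + 1) scale (SE 0.128) had a limma adjusted p of 0.00852. Without either F. nucleatum library the call was lost, with an adjusted p of up to 0.111. At its 3′ end IL6ST overlaps an antisense long noncoding RNA, and a processed pseudogene, IL6STP1, is annotated elsewhere in the genome. Their share in these values was not tested.

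LIFR, which pairs with gp130 to bind LIF, was at 0.777 and 0.820 FPKM in the PBS-treated cells, compared with 1.067 and 1.003 FPKM after F. nucleatum, and was below the filter. Its groups did not overlap. IL6R, the IL-6 receptor α chain, was at 0.894 and 1.02 FPKM in Control cells, against 1.46 and 1.59 FPKM in treated cells. Its groups did not overlap, but the difference of 0.37 was not called (limma adjusted p = 0.25). IL11RA, the IL-11 receptor α chain, was at 3.876 and 4.333 FPKM without and 4.533 and 4.104 FPKM with the bacterium, with overlapping groups.

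The other receptors differed widely in level. TNFRSF1A, the main TNF receptor, was the most abundant, at 26.33 and 28.48 FPKM in the PBS-treated cells, compared with 23.76 and 27.15 FPKM after F. nucleatum, whereas TNFRSF1B did not exceed 0.0922 FPKM. IL1R1, the signalling IL-1 receptor, was between 2.101 and 2.739 FPKM in the 4 libraries, its accessory chain IL1RAP between 0.367 and 0.524 FPKM and the decoy IL1R2 between 0.133 and 0.325 FPKM. IL18R1 lay between 0.269 and 0.631 FPKM, but its partner IL18RAP was listed at 0 in all 4 libraries. CSF1R reached at most 0.0308 FPKM, CSF2RA at most 0.46 FPKM, and CSF2RB, the chain that transmits the GM-CSF signal, was listed at 0 throughout. Both chains of the LIF receptor were thus above 0 in every library. In Control cells, however, they were low as well, IL6ST at 0.201 and 0.477 FPKM and LIFR at 0.777 and 0.820 FPKM. For IL18 and CSF2 1 receptor chain was at 0 throughout, and for CSF1 the receptor was near 0.

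**Figure D2:**
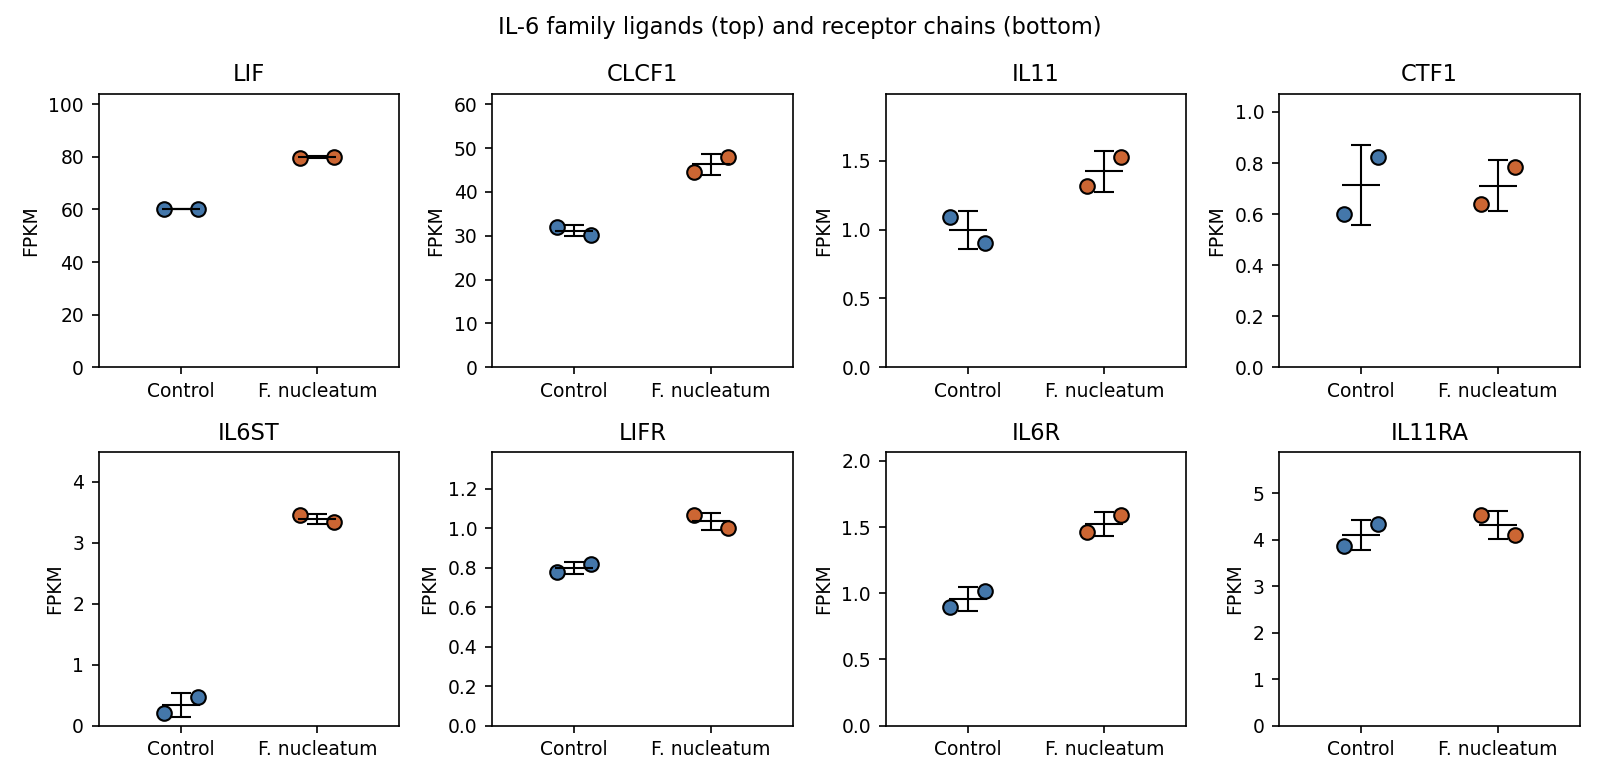
FPKM (vertical axis, from 0) of 4 ligands of the IL-6 family (LIF, CLCF1, IL11, CTF1) and 4 receptor chains (IL6ST, LIFR, IL6R, IL11RA) in the 4 input libraries, with 1 point for each library and mean ± SD of 2 libraries per group. LIF, CLCF1 and IL6ST were called. The groups of CTF1 and IL11RA overlap and those of the other genes do not, as for 47.2% of all entries tested.

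Among 25 other interleukins and colony-stimulating factors 10 were listed at 0 in all 4 libraries, among them IL10, IL33 and CSF3, and 4 could be tested. Of these 1 was called, against 0.803% of all entries tested, in a list that was also chosen with earlier results known. It was CLCF1, cardiotrophin-like cytokine factor 1, a further member of the gp130 family. CLCF1 was at 32.1 and 30.27 FPKM in Control cells, against 44.65 and 48.06 FPKM in treated cells. It rose by 0.56 on the log2(FPKM + 1) scale (SE 0.0686, limma adjusted p = 0.0385). Without F. nucleatum 1 or 2, which left 1 library in that group, the call was lost, at rises of 0.61 and 0.50. The CLCF1 call was also lost without a filter (limma adjusted p = 0.0893) and with eBayes without trend (0.0908). CLCF1 lies within annotated loci of other genes on both strands, including RAD9A, and shares this limit with LIF and IL6ST. The other 3 tested genes of the list, IL12A, IL23A and EBI3, were not called. IL23A passed the filter only through its F. nucleatum values (mean 1.167 FPKM, against 0.889 FPKM in Control). EBI3 passed it only through its Control values (mean 1.269 FPKM, against 0.883 FPKM with the bacterium). Of the other gp130 ligands in the list, CTF1 (cardiotrophin-1) was below the filter, at 0.602 and 0.825 FPKM without and 0.641 and 0.783 FPKM with the bacterium, with overlapping groups. OSM (oncostatin M) was above 0 in Control 1 alone, at 0.0483 FPKM.

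Of 15 genes for maturation, release and antagonists of these cytokines 11 were tested and none was called, against 0.803% of all entries tested. In limma 1 of these 11 had an unadjusted p under 0.05, as did 1496 of all 11088 entries tested. Of the differences 5 were above and 6 below 0, with a median of -0.03 on the log2(FPKM + 1) scale. CASP1, the protease that matures IL-1β and IL-18, was listed at 0 in all 4 libraries, so the abundant IL18 mRNA stood beside no measured CASP1 mRNA. PYCARD, the adaptor that recruits CASP1, was at 0.247 and 0.303 FPKM without and 0.0474 and 0.103 FPKM with the bacterium, below the filter. CASP8, another protease that can cleave these precursors, was between 4.512 and 5.052 FPKM. CASP4, a further caspase of the list, was higher, between 11.21 and 12.42 FPKM. The gene with the unadjusted p was IL18BP, the secreted antagonist of IL-18, which was singled out after its values were seen. IL18BP was at 4.156 and 3.98 FPKM in the PBS-treated cells, compared with 3.462 and 3.072 FPKM after F. nucleatum, a difference of -0.25 (limma adjusted p = 0.346). ADAM17, the sheddase that releases TNF, was between 8.796 and 9.666 FPKM with overlapping groups.

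The 21 genes that carry TNF, IL-1 and gp130 signals into the cell were all above 0 in at least 1 library, and 18 were tested. None was called, against 0.803% of all entries tested. In limma 1 of the 18, TAB2, had an unadjusted p under 0.05, as did 1496 of all 11088 entries tested. Of the differences 9 were above and 9 below 0, and the median was 0.0 on the log2(FPKM + 1) scale. JAK1 was between 12.69 and 14.82 FPKM and STAT3, the main effector of gp130, between 7.67 and 14.13 FPKM, the lowest and the highest STAT3 value both being F. nucleatum libraries. TRADD, RIPK1, MYD88 and TRAF6, adaptors of the TNF and IL-1 receptors, lay between 2.375 and 11.28 FPKM.

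All 11 listed genes with a role in the decay or stability of cytokine mRNAs were tested. Of these 3 were called higher and none lower, against 0.803% of all entries called (74 higher and 15 lower). The list was chosen with earlier results of these data known, so its count cannot show an enrichment. The median difference was 0.07 on the log2(FPKM + 1) scale, beside 0.014 over all entries tested. ZFP36 (tristetraprolin), which binds AU-rich elements and recruits the machinery that removes the poly(A) tail, was at 48.97 and 48.89 FPKM in Control cells, against 88.72 and 90.87 FPKM in treated cells. It rose by 0.86 (SE 0.0533, limma adjusted p = 0.00485). Its relative ZFP36L1 was at 40.12 and 42.29 FPKM against 60.85 and 64.94 FPKM, a rise of 0.60 (SE 0.0645, limma adjusted p = 0.0265). ZC3H12A (regnase-1), an endonuclease that cuts stem-loops in cytokine 3′UTRs, was at 7.976 and 7.669 FPKM against 13.76 and 13.99 FPKM, a rise of 0.75 (SE 0.0701, limma adjusted p = 0.0174). All 3 lost the call when either F. nucleatum library was left out, which left 1 library in that group. The rises without F. nucleatum 1 or 2 were 0.88 and 0.85 for ZFP36, 0.64 and 0.55 for ZFP36L1, and 0.77 and 0.74 for ZC3H12A. With all libraries, ZFP36L1 also lost its call without a filter (limma adjusted p = 0.0663) and with eBayes without trend (0.0644). ZC3H12A lost its call without a filter as well (limma adjusted p = 0.0528). The other 8 genes, among them ELAVL1 (HuR), KHSRP and HNRNPD, were not called, and HNRNPD was at 137.9 and 126.7 FPKM without and 118.1 and 117.7 FPKM with the bacterium.

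**Figure D3:**
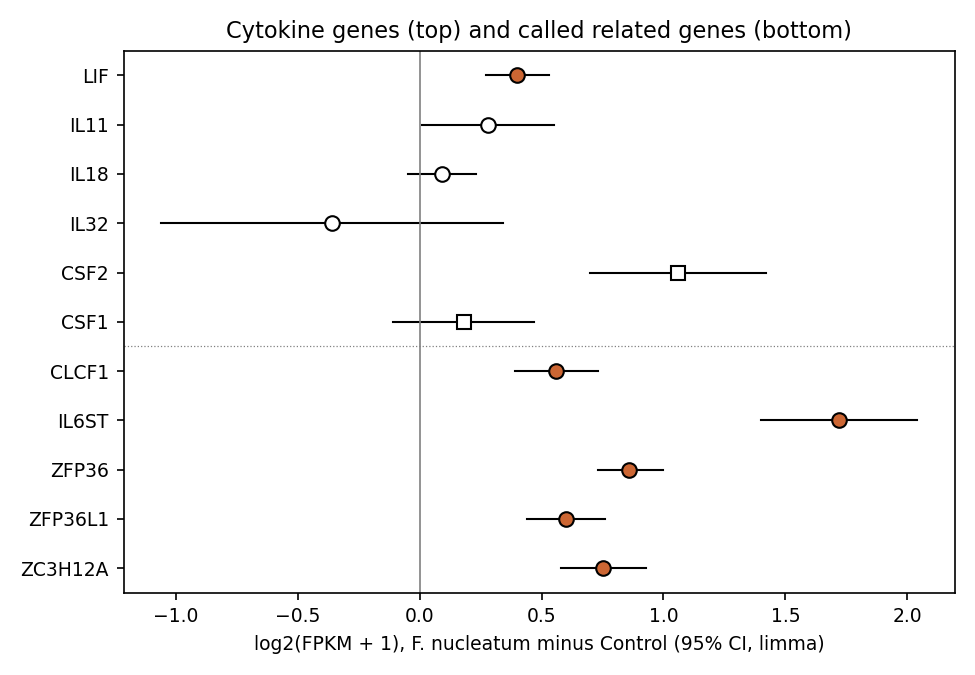
Difference between F. nucleatum and Control on the log2(FPKM + 1) scale (horizontal axis) with 95% confidence intervals from limma, for 6 cytokine genes above and for the 5 related genes that were called below. Filled symbols were called, and the squares of CSF2 and CSF1 come from the fit with the filter at a mean of 0.1 FPKM. LIF at 0.40 is the only filled cytokine, IL6ST at 1.72 is the largest value, and the CSF2 interval lies above 0 although its adjusted p was 0.0682.

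The AU-rich content of the transcripts was then set beside these levels. ATTTA was counted in the 3′UTR of the canonical transcript on the sense strand, overlapping copies included, along with the nonamer TTATTTATT, which holds 1 ATTTA. Over 19403 3′UTRs the median was 2 ATTTA, and 8.43% held a nonamer. CSF2 held 8 ATTTA in a 3′UTR of only 318 nt, 25.2 per kb, and 3 nonamers. Of all 3′UTRs within 10% of its length 0.128% held as many ATTTA. TNF held 9 in 799 nt with 5 nonamers (0.287% of like 3′UTRs held as many), IL6 6 in 425 nt with no nonamer (0.807%), IL1B 6 in 610 nt with 2 nonamers (1.55%) and IL11 9 in 1625 nt with 6 nonamers (7.25%). IL1A had 5 in 1142 nt, and 17.5% of like 3′UTRs held as many.

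LIF was less crowded for its length. Its 3′UTR of 3198 nt held 7 ATTTA and 2 nonamers, and 53.9% of 3′UTRs of like length held as many ATTTA. CSF1 held 4 in 2154 nt (56.1%). IL18 and IL32, in 336 and 175 nt, held none. The 6 cytokines above 0 in every library thus held 0, 0, 4, 7, 8 and 9 ATTTA and the 4 with essentially no signal 5, 6, 6 and 9, so the 2 ranges overlapped. Overlapping copies are those in capitals in the CSF2, TNF and IL11 sequences above.

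**Figure D4:**
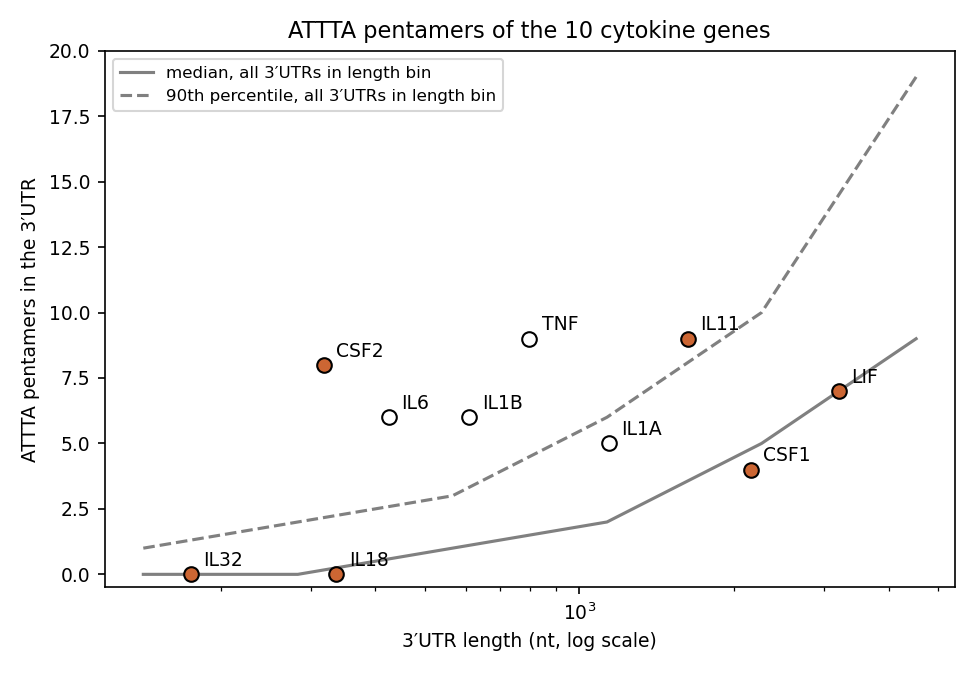
Number of ATTTA pentamers (vertical axis) against 3′UTR length in nt (horizontal log axis) for the 10 cytokine genes, filled where the gene was above 0 FPKM in every input library, with lines for the median and the 90th percentile of all 3′UTRs in bins of length. CSF2, with 8 in 318 nt, and TNF, with 9 in 799 nt, lie far above the upper line. IL6 and IL1B, with 6 each, also lie above it, and LIF and CSF1 lie near the median.

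Finally, the m6A peaks of the cytokine genes were examined. Peaks of the 4 lists, each 1 IP library against its input, were joined where they overlapped by at least 1 base on the same strand. This gave 7 regions with 24 peaks in 5 of the 10 genes, out of 22001 regions with 70751 peaks in all. LIF held 3 regions, and IL18, IL32, CSF1 and CSF2 held 1 each. All 7 lay in the last exon, 3 with their middle within 100 nt of the stop codon and 4 in the 3′UTR. Of these 7, 4 had a peak in all 4 lists, as did 51.5% of all regions. Of the cytokines without a peak IL11 was the only one above 0 in every library. Among all entries 83.9% of those with a mean of at least 1 FPKM had a peak, 20.4% of those above 0 but below 1 FPKM and 0.397% of those at 0 in all libraries.

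LIF (chromosome 22, 30636442 to 30642748, minus strand, 3 exons) was the most heavily covered, with 53.3% and 55.6% of its 3871 nt transcript in peaks for Control, against 51.7% and 48.6% for treated cells. Region 1 (chr22:30638703-30640046, 1344 nt) ran from the coding sequence to at most 937 nt past the stop codon and had a peak in every list, with p-values of 4e-65 and 4e-94 for the Control pair and 3.2e-71 and 6.3e-69 for the treated pair. It held 11 GGAC, and 14.7% of regions of like length (within 10%) held as many. Region 3 (chr22:30636854-30637540, 687 nt) lay in the distal 3′UTR, with p-values of 1.3e-100 and 1e-107 for the Control pair and 1e-159 and 1e-101 for the treated pair, and held 5 GGAC and 2 of the 7 ATTTA. These peaks were among the strongest of each list, with between 2.95% and 9.91% of the peaks of a list at a p-value as low. Region 2 (chr22:30637808-30637987, 180 nt) was weaker, with p-values of 1.9e-05 in Control 1, 1.8e-07 in Control 2 and 0.00011 in F. nucleatum 1, and no peak in F. nucleatum 2. The 2 strong LIF regions were thus called in every list, while the LIF mRNA differed between the groups.

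CSF2 (chromosome 5, 131409482 to 131411863, plus strand, 4 exons) was the only cytokine with a region in both F. nucleatum lists and in no Control list, a pattern shared by 2.38% of all regions. The region (chr5:131411515-131411689) spanned the stop codon, from 30 nt before its end to 144 nt after it. The peak was 175 nt long in F. nucleatum 1 and 88 nt in F. nucleatum 2, with the authors' p-values of 5.6e-06 and 0.0017, and 63.4% and 91.7% of the peaks of these lists had a p-value as low. Both GGAC of the region lay within the longer peak and outside the shorter one, and 59.5% of regions of like length held a GGAC. None of the 8 ATTTA of CSF2 lay in it, all of them being further downstream. CSF2 was also the cytokine whose input level differed most between the groups. Of 1116 entries with a Control mean from 0.105 to 0.361 FPKM, the span of CSF2, 14.9% had a peak in at least 1 Control list, and of 541 entries with an F. nucleatum mean from 1.33 to 1.79 FPKM, 60.1% had a peak in both F. nucleatum lists. A change in m6A and a change in the amount of mRNA available for a peak call cannot be told apart here.

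IL18 (chromosome 11, 112013983 to 112034817, minus strand, 6 exons) had 1 region over the end of its coding sequence and nearly its whole 3′UTR (chr11:112013974-112014474), in every list, with p-values of 5e-22 and 6.3e-27 for the Control pair and 4e-33 and 4e-39 for the treated pair. The peaks began at the same base in every list and covered between 42.3% and 44.1% of the transcript. The single GGAC of this region lay near its upstream edge, 150 nt before the end of the stop codon. CSF1 (chromosome 1, 110453471 to 110473614, plus strand, 9 exons) had 1 region in the 3′UTR (chr1:110471608-110472417) in all 4 lists, but made of separate weak peaks. They covered 3.0% and 12.8% of the CSF1 transcript for Control, against 9.81% and 15% for treated cells, with p-values between 9.8e-06 and 0.00059, and the peak of Control 1 did not overlap that of Control 2. IL32 (chromosome 16, 3115641 to 3119531, plus strand, 7 exons) had 1 peak of 120 nt at the stop codon (chr16:3119316-3119435), in F. nucleatum 2 alone, the library with the lowest IL32 level. Its p-value was 0.00076 and it held no GGAC.

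**Figure D5:**
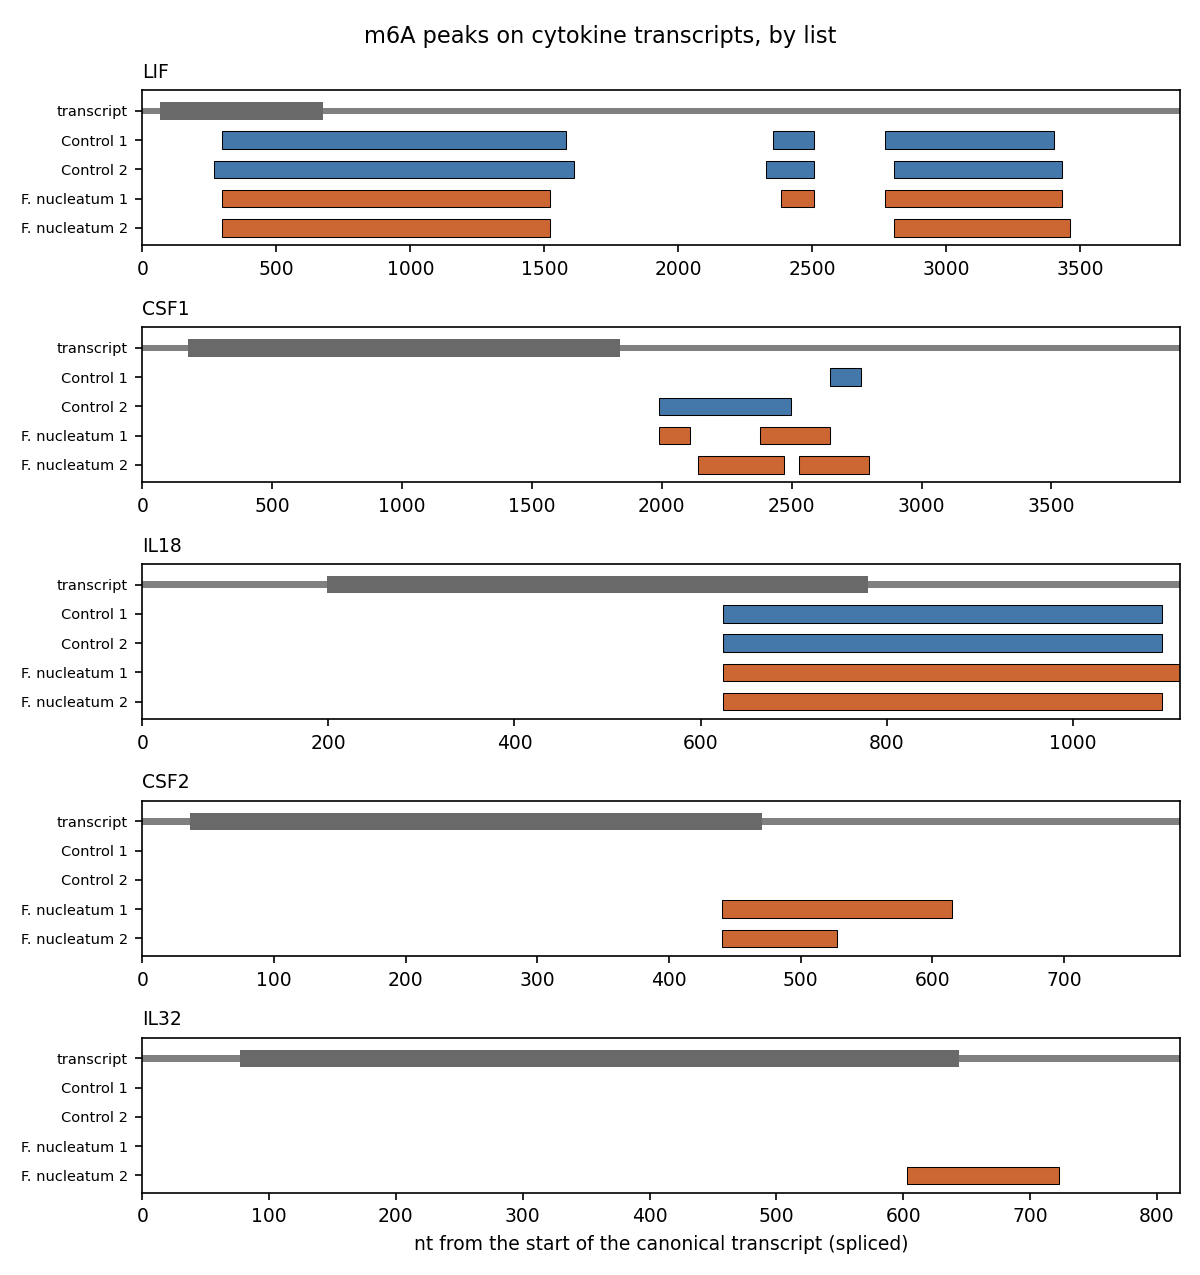
m6A peaks along the spliced canonical transcripts of LIF, CSF1, IL18, CSF2 and IL32 (horizontal axis in nt from the transcript start, a separate scale for each gene), with 1 row of bars for each of the 4 lists and the coding sequence as the thick part of the transcript. The strong LIF and IL18 peaks recur in all 4 lists, CSF2 has bars in the F. nucleatum rows alone, and IL32 has 1 bar, in F. nucleatum 2.

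The related genes that rose with LIF had peaks in Control lists too. IL6ST had 1 region at its stop codon in all 4 lists (p between 2e-15 and 0.0016), even though its input level in Control did not exceed 0.477 FPKM. CLCF1 and ZFP36 each had 1 region in all 4 lists, of 1166 and 1188 nt, and ZFP36L1 and ZC3H12A had 2 such shared regions each. None of these 5 genes had a region in both F. nucleatum lists that was absent from both Control lists.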

How the data were processed

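Poly(A) RNA of HCT116 cells was analysed in 8 libraries, 2 each of input and IP for Control and for F. nucleatum, grouped by their labels. The submitters' processing notes name Trim Galore 0.3.3, HISAT2 2.1.0, StringTie and hg19. The authors deposited FPKM of the input libraries, 1 value per entry and library, with no counts. Depth is therefore unknown and its error could not be computed. Some entries carry a number in place of a gene symbol, and some of these numbers occur more than once. The deposited peak lists, 1 per replicate, give 1 score per peak, taken here as an uncorrected p-value that the authors computed, and used to rank and filter peaks. The peak caller behind this layout is uncertain. FPKM correct for no other bias, such as GC content.

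Differences were tested with limma 3.58.1 in R 4.3.3 (eBayes with trend, no covariate) on log2(FPKM + 1), a scale that understates changes of low genes, over entries with a mean of at least 1 FPKM. With 2 libraries against 2 an exact permutation test cannot go below 0.333. The fit was run before use on simulated data with 200 changed genes. Their changes were far larger than that of LIF, so this run does not bear on changes of that size. Transcripts, loci and motifs came from GENCODE release 44 on GRCh37, and coordinates are 1-based. All 10 cytokines and the called genes of the lists are named, together with the receptor of each cytokine and the 3 genes nearest to LIF. Other list genes were singled out for their role after their values were seen. The members and lists were chosen with earlier results of these data known. The alternatives were another pseudocount, other filters, quantile normalization, no trend, a replicate block, a GC correction, leaving out each library, stricter peaks, other overlaps and assignment by annotation.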

Additional observations from a re-analysis of the deposited data

How the results depend on the processing

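Of the 4 cytokines tested only LIF was called, and the count of called cytokines was 0 without a filter (adjusted p of LIF 0.0731), with eBayes without trend (0.137), with the replicate block (0.0838) and with a filter and pseudocount of 0.1 together (0.0535), an alternative chosen after seeing the data. It was between 0 and 1 when 1 library was left out, and it was 0 without F. nucleatum 1 or F. nucleatum 2. All of these settings left LIF between 0.40 and 0.42 on the log2 scale, and the other 6 kept its call. Same-numbered libraries deviated with a correlation of 0.0243 over 2 pairs, so the replicate numbers gave no sign of pairing.

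The number of genes called overall was 89, was 40 without a filter and ranged from 16 (without F. nucleatum 2) to 284 (without Control 2) with 1 library left out, 24 without F. nucleatum 1 and 172 without Control 1. The replicate block gave 90. The IL32 difference ranged from -0.79 (without F. nucleatum 1) to 0.07 (without F. nucleatum 2). With the filter and pseudocount of 0.1, CSF2 differed by 2.42 and CSF1 by 0.42 (adjusted p of 0.139 and 0.564). The count of cytokines above 0 in every library was 6, and 3 at a minimum of 1 FPKM. The 7 m6A regions became 11 at a reciprocal overlap of 50%, as the CSF1 region alone then came apart. FPKM without counts limit what can be said of genes near 0.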
